A study of Mus musculus with 12 samples.

Results

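The interaction of SEMA6A and SEMA3A was measured in mouse splenocytes as a 2 by 2 design over 12 of the 12 arrays of the series, with 3 arrays in each of 4 groups. Splenocytes of DBA/2 mice, 10 weeks old, were kept for 9 days together with KLN-205, a lung squamous carcinoma line of this strain, and interleukin-2 at 100 units/mL. The KLN-205 cells of all 4 groups carried a knockdown of SEMA3A, so none of the groups had unmodified tumour cells. In the group with both factors the tumour cells also overexpressed SEMA6A, and purified SEMA3A was added at 10 µg/mL. The SEMA6A group had the overexpressing tumour cells and no added protein, and the SEMA3A group had the protein at 10 µg/mL and no overexpression. The control group had the knockdown cells alone. SEMA6A was supplied by 1 tumour line, with no level of the protein and no number of clones in the labels, and SEMA3A was supplied as protein at 1 dose. Whether replicate arrays stand for separate cultures or animals is not stated, and the p-values therefore reflect the spread among these arrays alone, which may be technical.

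The interaction of a gene was taken as the SEMA6A effect in the presence of SEMA3A minus the SEMA6A effect in its absence, on the log2(signal + 16) scale, and it has the same value when the factors are exchanged. A value below 0 belongs to a gene that on average lay higher with 1 factor than with both or neither, and a value above 0 to the opposite pattern. The contrast addresses which genes respond to one factor only when the other is absent.

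SEMA3A is a secreted semaphorin that binds neuropilins, and these signal through class A plexins. SEMA6A is a transmembrane semaphorin that binds plexin-A2 and plexin-A4. Both were first known as guidance cues of axons, and semaphorins of several classes also act on the migration and activation of leukocytes. Splenocytes kept with interleukin-2 are known to become dominated by cytotoxic lymphocytes, in which glycolysis, the hypoxia-inducible factor (HIF) pathway, the cell cycle, cytokines and inhibitory receptors all respond to activation, nutrients and oxygen.

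Each array gave 1 deposited signal for 45037 probe sets other than control probe sets, and the array medians lay between 42.5 and 53.5. A signal measures brightness, so levels of different genes are not compared, and in bulk RNA fewer cells of a type and less RNA per cell cannot be told apart. Cytotoxic T cell genes were bright in every group, with a mean Gzmb signal of 41562 ± 3637 with both factors and 43122 ± 4872 in the control (SD, n = 3 each), and Cd3e and Cd8a passed the filter on dim probe sets. Cd4, the macrophage marker Adgre1 and the squamous keratin Krt14 did not. The ratio of the 3-prime to the 5-prime probe set of the transferrin receptor, which the array carries as a sign of RNA length, moved with the interaction: it was 20.0 ± 9.04 where 1 factor was present (6 arrays) and 8.99 ± 2.45 where both or neither were (6 arrays) (SD; exact two-sided permutation test over 924 splits, p = 0.0108, adjusted p = 0.0541 over 5 array measures). It lay at 12.2, 5.93 and 11.2 with both factors, 8.39, 35.7 and 23.3 with SEMA6A alone and 17.2, 17.6 and 18.1 with SEMA3A alone, against 6.82, 8.41 and 9.34 in the control. The transferrin receptor gene Tfrc itself had an interaction of 0.58 ± 0.18 (SE), but -0.31 by another probe set. The same ratio for Gapdh was 0.853 with either factor alone and 0.793 otherwise (exact permutation p = 0.896). These means hide 1 array: SEMA6A replicate 2 had a Gapdh ratio of 1.22, and all others lay between 0.767 and 0.818. That array also had the highest ratios for Actb (1.23), pyruvate carboxylase (15.5) and the transferrin receptor (35.7). On many of the genes below, SEMA6A replicate 1 and SEMA3A replicate 3 lay beside the control arrays, apart from the other 4 arrays with 1 factor, so the list medians below are also given without each of them. These 2 arrays were picked for their values, and medians without them tend to lie further from 0, so they are no check of a pattern.

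Of 11325 genes tested, 0 passed an adjusted p of 0.05 for the interaction (0%; limma with Benjamini-Hochberg adjustment), and the lowest adjusted p was 0.197. At an unadjusted p under 0.05, 1151 genes lay below 0 (10.2%) and 886 above 0 (7.82%), 2037 in all. The counts of called genes turned on a few arrays: 258 genes passed the adjusted threshold without SEMA3A replicate 3, 1260 without SEMA6A replicate 1 and 1580 when the fit weighted arrays by their scatter, with 220 genes in all 3 sets. The weights were 0.476, 0.217 and 2.00 for the 3 SEMA6A arrays and 0.584 for SEMA3A replicate 3. All other settings gave 0, and the median gene's interaction carried a 95% interval of 0.467 to either side. The genes described below are therefore given as values, and none passed the adjusted threshold in the fit of all 12 arrays. Their adjusted p was between 0.197 and 0.211 unless another is stated, and ± after an interaction is its SE.

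The interaction has an effect of each factor on either side. The effect of SEMA6A without SEMA3A passed an unadjusted p of 0.05 for 10.5% of genes, and with SEMA3A for 11.2%. For SEMA3A these shares were 8.74% without SEMA6A and 11.5% with it. Both factors against the control gave 4.11%, the lowest share of the 5 comparisons between groups. Among the 1151 genes with an interaction below 0, the SEMA6A effect passed that level only without SEMA3A for 372, only with SEMA3A for 296, on both sides with opposite sign for 132 and on neither side for 351. Among the 886 above 0 these counts were 211, 321, 66 and 288. For the SEMA3A effect the first 3 counts were 260, 392 and 133 below 0, and 251, 289 and 60 above 0. A response only in the presence of the other factor was thus counted more often than one only in its absence in 3 of these 4 sets, the exception being the SEMA6A effect of the genes below 0. The difference between the counts was not tested. No gene of either set had both effects past that level with the same sign. The sets were picked by the difference between these effects, which favours opposite signs, so this absence is no separate result. Across the 11325 genes, the SEMA6A effect with SEMA3A against that without it gave r = -0.37 (Spearman's rho -0.36), and the SEMA3A effect with SEMA6A against that without it gave r = -0.43 (rho -0.43). These are correlations across genes, which are not independent replicates, between values from separate arrays. By order of the normalized log2 values, 49 genes (0.433%) were higher on all 6 arrays with 1 factor than on all 6 with both or neither, and 24 (0.212%) were lower on all 6.

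**Figure D1:**
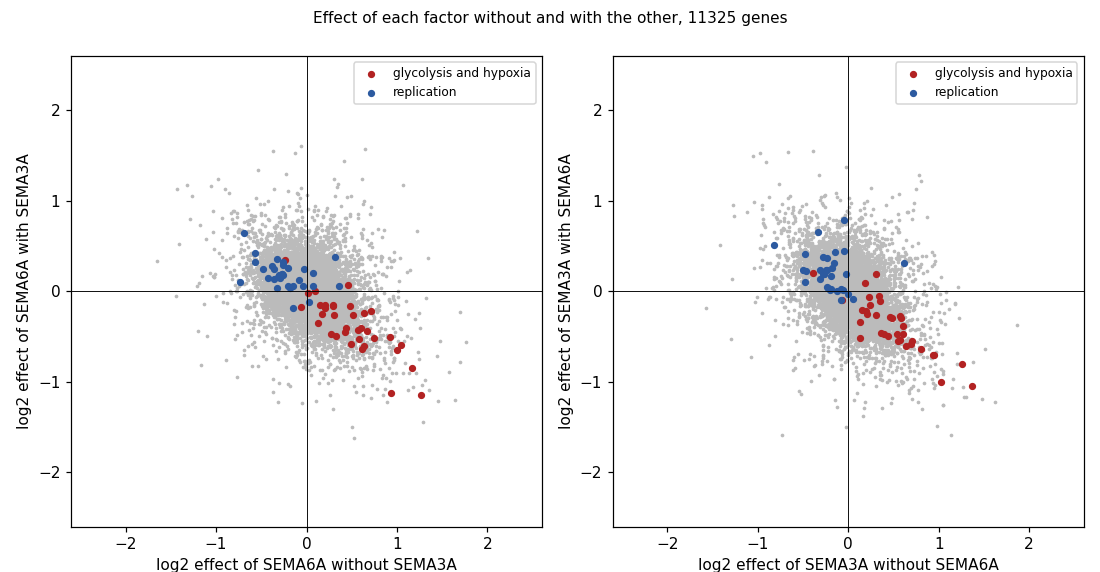
Effect of each factor on log2(signal + 16) with the other factor present (vertical axis) and absent (horizontal axis), 1 point for each of 11325 genes, with the glycolysis and hypoxia genes in red and the replication genes in blue. The red points lie mostly at positive effects without and negative effects with the other factor, and the blue points mostly the reverse.

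Genes of glycolysis and the hypoxia response lay higher with either factor alone than with both or neither. Of 35 genes of this list on the array, 35 passed the filter and 34 had an interaction below 0. At an unadjusted p under 0.05, 28 of the 35 lay below 0 (80.0%, against 10.2% of all genes) and 0 above. The median of the list was -0.84, while that of all genes was -0.00 and the middle 50% of all genes ran from -0.26 to 0.24. By group, the median log2 difference of the list was 0.48 for SEMA6A minus control, 0.46 for SEMA3A minus control, -0.41 for both factors minus SEMA3A and -0.38 for both minus SEMA6A. With both factors the list lay 0.13 above the control. Without SEMA6A replicate 1 the list median was -1.01 and without SEMA3A replicate 3 it was -0.98. It was -0.72 without SEMA6A replicate 2, and the weakest value with any 1 array left out was -0.71, without SEMA3A replicate 1.

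The promoters of 4 genes of this list that carry the pattern are shown because HIF binds the core letters ACGTG or GCGTG, which the hypoxia-responsive genes of many cell types hold near their start. Each sequence is the 250 bases before the gene's start in RefSeq on GRCm38.p6, read along the gene's own strand, 5′ to 3′, with ACGTG and GCGTG and their reverse complements CACGT and CACGC in capitals. The window of Bnip3 is chr7:138909507-138909756 on the minus strand, that of Fam162a chr16:36071562-36071811 on the minus strand, that of P4ha1 chr10:59323046-59323295 on the plus strand and that of Egln3 chr12:54203875-54204124 on the minus strand.
Bnip3: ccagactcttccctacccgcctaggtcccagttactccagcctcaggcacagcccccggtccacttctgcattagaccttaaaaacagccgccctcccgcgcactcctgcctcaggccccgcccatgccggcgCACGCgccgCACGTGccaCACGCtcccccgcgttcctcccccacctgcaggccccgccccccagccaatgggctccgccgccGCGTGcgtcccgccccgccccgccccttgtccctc
Fam162a: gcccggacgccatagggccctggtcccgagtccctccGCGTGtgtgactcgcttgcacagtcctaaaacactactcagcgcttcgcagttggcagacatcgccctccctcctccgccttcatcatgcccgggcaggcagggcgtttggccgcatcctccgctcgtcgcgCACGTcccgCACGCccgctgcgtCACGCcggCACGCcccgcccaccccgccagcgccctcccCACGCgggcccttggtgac
P4ha1: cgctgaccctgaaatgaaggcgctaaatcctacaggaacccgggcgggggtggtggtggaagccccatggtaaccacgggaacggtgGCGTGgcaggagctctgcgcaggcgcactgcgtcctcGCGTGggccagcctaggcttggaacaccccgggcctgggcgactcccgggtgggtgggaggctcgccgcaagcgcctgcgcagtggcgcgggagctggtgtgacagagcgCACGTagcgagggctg
Egln3: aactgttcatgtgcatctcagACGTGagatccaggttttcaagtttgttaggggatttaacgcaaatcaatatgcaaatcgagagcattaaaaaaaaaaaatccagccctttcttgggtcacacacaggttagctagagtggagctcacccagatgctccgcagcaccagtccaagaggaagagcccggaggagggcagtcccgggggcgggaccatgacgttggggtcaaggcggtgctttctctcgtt
Counted on both strands, so that CACGTG counts 2 times, the letters occurred 5 times before Bnip3, 6 times before Fam162a, 3 times before P4ha1 and 1 time before Egln3. They were present in the windows of 25 of the 33 list members with a RefSeq window (75.8%), 5250 of 9211 tested genes (57.0%) and 10431 of 27025 genes in the table (38.6%). A match is a description of the letters and not a sign of binding in these cells.

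Bnip3 encodes a protein of the outer mitochondrial membrane that directs mitochondria to autophagy, and it is a classical HIF target. Its signals were 9535, 9187 and 10314 with SEMA6A plus SEMA3A, 10760.4, 15810.0 and 16347 with SEMA6A alone and 17581, 16743 and 10851 with SEMA3A alone, against 7921, 9431 and 9499 in the control. All 6 arrays with 1 factor lay above all 6 others, with SEMA3A replicate 3 and SEMA6A replicate 1 nearest to them. The SEMA6A effect was 0.64 ± 0.18 without SEMA3A and -0.61 ± 0.18 with it, so the interaction was -1.24 ± 0.25 on the log2 scale. Egln3, a prolyl hydroxylase that marks HIF for degradation and is itself a HIF target, gave 1602, 1327 and 1999.9 with SEMA6A plus SEMA3A, 2040.2, 4081 and 2293 with SEMA6A alone and 3507, 2363 and 2038 with SEMA3A alone, against 1037, 1514 and 1535 in the control. The 6 arrays with 1 factor again lay above the 6 others, by a narrow margin between SEMA3A replicate 3 and the highest array with both factors, and the interaction was -1.65 ± 0.38. P4ha1, a subunit of the collagen prolyl 4-hydroxylase, had 889, 831 and 946 with SEMA6A plus SEMA3A, 994, 1315 and 1506 with SEMA6A alone and 1680.0, 1399 and 1055 with SEMA3A alone, against 869, 976 and 836 in the control, and the interaction was -1.08 ± 0.24. Here too the groups did not overlap, but another probe set of P4ha1 gave an interaction of only -0.02. Fam162a, a mitochondrial protein induced by hypoxia, gave 8551, 8003 and 9610.3 with SEMA6A plus SEMA3A, 9187, 10539 and 11348 with SEMA6A alone and 13796, 11756 and 9342 with SEMA3A alone, against 7217, 7599 and 8031 in the control. Its SEMA6A replicate 1 and SEMA3A replicate 3 lay below the highest array with both factors, and the interaction was -0.84 ± 0.19 (-0.24 by another probe set). Ankrd37, a HIF target that encodes an ankyrin repeat protein, had 582, 566 and 719.6 with SEMA6A plus SEMA3A, 657, 1475 and 1351 with SEMA6A alone and 2193, 1603 and 721 with SEMA3A alone, against 539, 647 and 531 in the control. SEMA6A replicate 1 and SEMA3A replicate 3 lay within or next to the range of the other groups, the remaining 4 arrays with 1 factor were far above it, and the interaction was -2.05 ± 0.49. The glycolytic enzymes Pfkp, Aldoa, Pgk1 and Ldha completed the 7 members of 35 whose normalized values were higher on all 6 arrays with 1 factor, against 0.433% of all genes.

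Within the list the interactions ran from -2.41 ± 0.60 for Aldoc, an aldolase, to 0.59 ± 0.33 for Car12, a membrane carbonic anhydrase with an adjusted p of 0.35, whose value was 0.33 without SEMA6A replicate 2 and 0.38 without SEMA3A replicate 1. Both were singled out as the ends of the range after the values were seen. Hif1a, the oxygen-regulated HIF subunit, is controlled mainly at the level of its protein, and its transcript had an interaction of -0.03 ± 0.14 (95% interval -0.34 to 0.28, adjusted p = 0.93). Another probe set of Hif1a gave 0.85, so its transcript is uncertain. Vegfa, the vascular growth factor and another HIF target, had -0.09 ± 0.22 (95% interval -0.58 to 0.39, adjusted p = 0.85). As an average over the list relative to the mean of all 12 arrays, the log2 levels were -0.15, -0.24 and -0.10 with SEMA6A plus SEMA3A, -0.10, 0.45 and 0.31 with SEMA6A alone and 0.43, 0.30 and -0.09 with SEMA3A alone, against -0.35, -0.20 and -0.26 in the control. SEMA6A replicate 1 and SEMA3A replicate 3 lay with the groups that had both or neither, and the transferrin receptor ratio given above was also low on the first of them, at 8.39, but not on the second, at 18.1. The part of RNA length in this pattern was not tested.

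**Figure D2:**
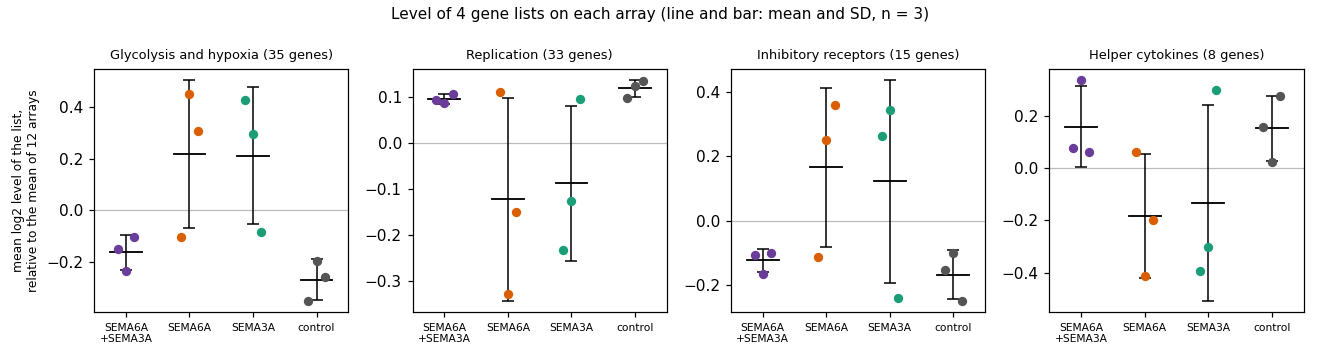
Mean log2 level of 4 gene lists on each array relative to the mean of 12 arrays (points), with the mean and SD of each group of 3 arrays, for glycolysis and hypoxia (35 genes), replication (33), inhibitory receptors (15) and helper cytokines (8). In the glycolysis panel 4 of the 6 arrays with 1 factor lie at 0.30 to 0.45, while SEMA6A replicate 1 and SEMA3A replicate 3, at -0.10 and -0.09, lie just above the 6 other arrays.

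Inhibitory receptors of T cells divided into members with an interaction well below 0 and members near or above 0. Of 16 genes on the array 15 were tested, and at an unadjusted p under 0.05, 7 lay below 0 (46.7%, against 10.2% of all genes) and 2 above (13.3%, against 7.82%). The highest value of the list was 0.65. The list median was -0.30, -0.37 without SEMA6A replicate 1 and -0.45 without SEMA3A replicate 3. Other single arrays moved it further, to -0.53 without SEMA6A replicate 2, -0.52 without control replicate 2, -0.14 without control replicate 3 and -0.05 without SEMA3A replicate 2. It was -0.79 with array weights and -0.71 with the filter at the 75th percentile or with each gene's most variable probe set. Pdcd1, which encodes PD-1, had signals of 369, 272 and 338 with SEMA6A plus SEMA3A, 439, 816 and 659 with SEMA6A alone and 787, 566 and 227 with SEMA3A alone, against 238, 348 and 261 in the control. SEMA3A replicate 3 was below every control array, and the other 5 arrays with 1 factor were above all arrays with both or neither. The interaction was -1.60 ± 0.48. Lag3, which binds MHC class II, gave 189.8, 238 and 217 with SEMA6A plus SEMA3A, 257, 988 and 604 with SEMA6A alone and 620.2, 646 and 209.6 with SEMA3A alone, against 299, 173 and 169 in the control, and the interaction was -2.30 ± 0.61. Ctla4, which competes with CD28 for its ligands, gave 1140.1, 1087 and 1367 with SEMA6A plus SEMA3A, 1083, 3692 and 2613 with SEMA6A alone and 3410.4, 2898 and 1132 with SEMA3A alone, against 1138, 1169 and 1024 in the control, with an interaction of -1.89 ± 0.58. In both genes 4 arrays with 1 factor stood apart from the other 8, which included SEMA6A replicate 1 and SEMA3A replicate 3. Havcr2, which encodes TIM-3, had an interaction of -0.71 ± 0.30 (adjusted p = 0.25). The PD-1 ligand gene Cd274 lay on the other side of 0, at 0.37 ± 0.19 (95% interval -0.03 to 0.77, adjusted p = 0.30).

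Ifng, Lta and Csf2, cytokine genes of activated T cells, lay lower on most arrays with either factor alone. Of 17 helper and effector cytokine genes on the array 8 passed the filter, so the list describes only those, and at an unadjusted p under 0.05, 3 lay above 0 (37.5%, against 7.82% of all genes) and 0 below. The median was 0.43, with 0.51 when SEMA6A replicate 1 was left out and 0.57 when SEMA3A replicate 3 was. It was 0.26 over all 17 genes with no filter, 0.26 with each gene's most variable probe set and 1.03 with the filter at the 75th percentile. Ifng, the interferon of T and NK cells, had signals of 677, 662 and 588 with SEMA6A plus SEMA3A, 444, 326 and 248 with SEMA6A alone and 302, 332 and 534 with SEMA3A alone, against 538, 541 and 543 in the control. Every signal with 1 factor lay below every control signal and every signal with both factors, which after normalization was no longer so, and the interaction was 1.46 ± 0.32. Lta, which encodes lymphotoxin-alpha, had 1141, 1117 and 1117 with SEMA6A plus SEMA3A, 1116, 309.7 and 473 with SEMA6A alone and 439, 494 and 1075 with SEMA3A alone, against 1042, 1255 and 1147 in the control, with an interaction of 1.92 ± 0.54. Csf2, which encodes the growth factor GM-CSF, had 856, 1027 and 859 with SEMA6A plus SEMA3A, 658, 135 and 332 with SEMA6A alone and 193, 298 and 1134 with SEMA3A alone, against 798, 712 and 916 in the control. SEMA3A replicate 3 gave the highest Csf2 signal of all 12 arrays, the other 5 arrays with 1 factor lay below all 6 arrays of the other groups, and the interaction was 2.51 ± 0.79. Tnf lay at 0.60 ± 0.37 (adjusted p = 0.39), which was 0.33 without SEMA3A replicate 1 and 0.39 without control replicate 3, and the anti-inflammatory Il10 at -0.76 ± 0.45 (adjusted p = 0.37).

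Chemokines and surface ligands had members on both sides. Of 14 genes of chemokines and their receptors tested of 19 on the array, 2 lay below 0 (14.3%, against 10.2% of all genes) and 3 above (21.4%, against 7.82%) at an unadjusted p under 0.05. The median was 0.0040 and turned sign with single arrays, at -0.09 without SEMA6A replicate 1 and 0.21 without SEMA3A replicate 3, with -0.24 without control replicate 1 as the lowest value. The members above 0 included Xcl1, a chemokine that attracts cross-presenting dendritic cells, at 2.55 ± 0.90, and Ccl1, a ligand of CCR8, at 2.09 ± 0.83 (adjusted p = 0.23). With 64 added to the signal, Ccl1 lay at 1.38. The receptors in this list included Ccr7 and Cxcr4, which direct lymphocytes to lymph nodes and to CXCL12, at 1.91 ± 0.58 and -1.23 ± 0.34. In the list of costimulatory and TNF family genes, 16 were tested of 21, with 2 below 0 and 4 above at that level, against 10.2% and 7.82% of all genes, and a median of -0.04, -0.06 without SEMA6A replicate 1 and -0.01 without SEMA3A replicate 3. Tnfsf8, the ligand of CD30, was at 1.41 ± 0.35 and Tnfsf11, the cytokine RANKL, at 1.50 ± 0.46.

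Granule genes of killer cells had interactions on both sides of 0, from -1.49 to 1.26. Of 17 tested of 17 on the array, 6 lay below 0 (35.3%, against 10.2% of all genes) and 1 above at an unadjusted p under 0.05, and the median was -0.17. It was -0.14 without SEMA6A replicate 1, -0.19 without SEMA3A replicate 3 and -0.08 without SEMA6A replicate 2. The interaction of the protease Gzmb was -0.17 ± 0.08 (95% interval -0.35 to -0.00, adjusted p = 0.28) and that of Gzma -0.33 ± 0.10. The mean Gzmb signals given above were near the highest signal on an array, which was 44046 to 53212. Differences of Gzmb may be understated there, which was not tested. The pore-forming protein gene Prf1 lay at -0.52 ± 0.22 (adjusted p = 0.25), or -0.19 by its most variable probe set, and Gzmk at -1.49 ± 0.50. Gzmf lay on the other side, at 1.26 ± 0.35. Several mouse granzymes are close paralogs, so probe sets of this family may share signal.

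DNA replication genes lay lower with either factor alone than with both or neither, opposite to the glycolysis genes. All 33 on the array were tested, 29 had an interaction above 0, and 14 passed an unadjusted p of 0.05 above 0 (42.4%, against 7.82% of all genes) and 0 below. The median was 0.46, with 0.62 without SEMA6A replicate 1, 0.56 without SEMA3A replicate 3 and 0.29 without SEMA6A replicate 2. Ccne2, cyclin E2, which drives entry into S phase, had signals of 1036, 1091 and 986 with SEMA6A plus SEMA3A, 991, 647 and 617 with SEMA6A alone and 554, 603 and 894 with SEMA3A alone, against 1145, 1299 and 1154 in the control. The signal of SEMA6A replicate 1 was within the range of the arrays with both factors, and after normalization all 6 arrays with 1 factor lay below the 6 others, with an interaction of 1.33 ± 0.27. Pola1, the catalytic subunit of DNA polymerase alpha, was the other member with normalized values lower on all 6 arrays with 1 factor, at 0.99 ± 0.24. Hells, a chromatin remodeller of dividing cells, had 0.69 ± 0.16, the flap nuclease Fen1 0.58 ± 0.17 and the ribonucleotide reductase subunit Rrm2 0.55 ± 0.17. The helicase subunit Mcm6 lay below 0, at -0.29 ± 0.18 (adjusted p = 0.39), with -0.46 without SEMA6A replicate 1 and -0.15 without SEMA6A replicate 3. As an average over the list relative to the mean of 12 arrays, the log2 levels were 0.09, 0.08 and 0.11 with SEMA6A plus SEMA3A, 0.11, -0.33 and -0.15 with SEMA6A alone and -0.23, -0.13 and 0.10 with SEMA3A alone, against 0.10, 0.12 and 0.13 in the control. SEMA6A replicate 1 and SEMA3A replicate 3 were again level with the 6 arrays that had both or neither.

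Mitosis genes had a smaller median interaction, 0.18, and its difference from that of the replication genes was not tested. All 29 were tested, with 19 above 0 and 10 below, and only 2 below (6.9%) and 1 above (3.4%) at an unadjusted p under 0.05, under the 10.2% and 7.82% of all genes. The mitotic motor Kif11 was at 0.43 ± 0.14 and the proliferation marker Mki67 at -0.29 ± 0.11 (adjusted p = 0.23). In the list of MYC and ribosome biogenesis genes 23 were tested of 23, 18 lay above 0, and 6 lay above (26.1%, against 7.82% of all genes) and 1 below at an unadjusted p under 0.05, with a median of 0.32. The mitosis median was 0.20 without SEMA6A replicate 1, 0.21 without SEMA3A replicate 3 and 0.07 without SEMA6A replicate 2, and that of the MYC list 0.46, 0.33 and 0.18 in the same order. Examples were Odc1, the first enzyme of polyamine synthesis, at 0.71 ± 0.23, and Nop58, a core protein of box C/D ribonucleoproteins, at 0.61 ± 0.20.

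Genes of the unfolded protein and amino acid stress response, many of them induced by ATF4, lay mostly below 0. Of 31 on the array 30 were tested, and 12 lay below 0 (40.0%, against 10.2% of all genes) and 1 above at an unadjusted p under 0.05, with a median of -0.26, -0.25 without SEMA6A replicate 1 and -0.34 without SEMA3A replicate 3. The alanyl-tRNA synthetase gene Aars had an interaction of -0.88 ± 0.22, Atf4 itself -0.40 ± 0.11 (-0.13 by its most variable probe set), the mitochondrial folate enzyme Mthfd2 -0.44 ± 0.15 and asparagine synthetase, Asns, -0.83 ± 0.29. Sterol and fatty acid synthesis genes gave 8 of 24 below 0 (33.3%, against 10.2% of all genes) and 0 above, with a median of -0.24, which was -0.32 without SEMA6A replicate 1 and -0.23 without SEMA3A replicate 3, and -0.13 without SEMA6A replicate 2. Among them the desaturase Scd1 lay at -0.77 ± 0.19, and the mevalonate pathway enzymes Mvd and Pmvk at -0.62 ± 0.20 and -0.56 ± 0.18. Of 36 oxidative phosphorylation genes, 2 lay below and 2 above at that level (5.6% each way, under the 10.2% and 7.82% of all genes). Their median was -0.04, -0.05 without SEMA6A replicate 1 and -0.06 without SEMA3A replicate 3.

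Type I interferon response genes lay above 0 in 18 of 25 tested, of 27 on the array, and 5 lay above 0 (20.0%, against 7.82% of all genes) and 1 below at an unadjusted p under 0.05. The median was 0.27, with 0.38 without SEMA6A replicate 1, 0.36 without SEMA3A replicate 3 and 0.14 without SEMA6A replicate 2, and it was 0.18 with no filter or with 64 added to the signal. Usp18, a protease that removes ISG15 and dampens the interferon receptor, was at 1.53 ± 0.51, Rtp4 at 2.03 ± 0.71 and Ifit2, which binds foreign RNA, at 0.60 ± 0.21. In the MHC class I list 0 of 14 passed that level in either direction. Of 26 immediate early genes, 2 lay below 0 (7.7%, against 10.2% of all genes) and 7 above (26.9%, against 7.82%), with a median of 0.09 that was 0.05 without SEMA6A replicate 1 and 0.09 without SEMA3A replicate 3. The AP-1 subunit Jun was at -0.53 ± 0.18 and the early activation antigen Cd69 at 0.65 ± 0.23.

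The genes with the smallest p-values for the interaction were not all members of these lists. Above 0 the smallest p belonged to Nsg2, known as an endosomal protein of neurons, with signals of 151, 162 and 156 with SEMA6A plus SEMA3A, 98.6, 111 and 113 with SEMA6A alone and 72.9, 63.4 and 87.1 with SEMA3A alone, against 161, 129.7 and 165 in the control. The 6 arrays with 1 factor lay below the 6 others, and the interaction was 1.43 ± 0.24. Its unadjusted limma p was 3.8e-05 and its adjusted p 0.197. Slc5a5, the sodium-iodide symporter, gave 74.7, 82.2 and 77.8 with SEMA6A plus SEMA3A, 15.5, 15.8 and 15.0 with SEMA6A alone and 67.0, 39.6 and 42.6 with SEMA3A alone, against 69.4, 87.0 and 45.0 in the control. SEMA6A alone stood at 15.0 to 15.8, far below the other 3 groups, while SEMA3A alone overlapped the control, and the interaction was 1.94 ± 0.34. Dim signals of this kind are compressed by the added 16, and with 64 added the Slc5a5 value was 1.06. Cpox, an enzyme of haem synthesis, had 860.4, 793 and 654 with SEMA6A plus SEMA3A, 360.2, 599 and 329.9 with SEMA6A alone and 190.2, 324 and 290.0 with SEMA3A alone, against 408, 651 and 347 in the control. All signals with both factors lay above those of the other 3 groups, by a narrow margin over control replicate 2, and the interaction was 1.65 ± 0.37. Others of the 12 smallest p-values above 0 were cytochrome c, Cycs, at 0.59 ± 0.12, the splicing regulator Tra2a at 0.61 ± 0.13, the nuclear matrix protein Matr3 at 0.46 ± 0.10, the vesicle trafficking gene Scyl2 at 1.16 ± 0.23, Zfp800 at 0.75 ± 0.17 (0.17 by its most variable probe set), Cd300lf, a myeloid receptor, at 1.22 ± 0.28 and the histone chaperone Anp32b at 0.41 ± 0.10.

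Below 0 the smallest p-values were those of Irgq and Higd1a. Irgq, a quality control protein of the immunity-related GTPase family, had 147, 153 and 137 with SEMA6A plus SEMA3A, 197, 408 and 287 with SEMA6A alone and 276, 278 and 173 with SEMA3A alone, against 159, 122 and 135 in the control, and the interaction was -1.56 ± 0.31. Higd1a, a mitochondrial protein induced by hypoxia, had 9447, 8457 and 9077 with SEMA6A plus SEMA3A, 9926, 13084 and 11160.3 with SEMA6A alone and 11429, 11664 and 10286 with SEMA3A alone, against 8348, 8570.0 and 9030.0 in the control, and the interaction was -0.69 ± 0.14. In both genes the 6 arrays with 1 factor lay above the 6 others. Idh1, the cytosolic isocitrate dehydrogenase, which makes NADPH, had 468, 427 and 422 with SEMA6A plus SEMA3A, 537, 1099.9 and 768 with SEMA6A alone and 808, 617 and 579.9 with SEMA3A alone, against 433, 464 and 447 in the control, and the interaction was -1.33 ± 0.28. Klf2, a transcription factor that keeps T cells quiescent and in circulation, had 152, 117 and 111 with SEMA6A plus SEMA3A, 191, 227 and 227 with SEMA6A alone and 213, 304 and 160.1 with SEMA3A alone, against 145, 163 and 123 in the control, with an interaction of -1.22 ± 0.27. SEMA3A replicate 3 was the lowest of the 6 Klf2 signals with 1 factor, just under the highest control array, and after normalization the 6 lay above the 6 others. The remaining genes of this set were the aldo-keto reductase Akr1b10 at -1.17 ± 0.24, the lysosomal adaptor subunit Ap3b1 at -0.88 ± 0.19, the myosin light chain Myl4 at -1.73 ± 0.38, the microRNA processing enzyme Dicer1 at -0.63 ± 0.14 and Tmco6 at -0.92 ± 0.21, beside Bnip3, Fam162a and P4ha1. Other probe sets of Dicer1, Zfp800 and Cpox gave the opposite sign, as did those of Hif1a, Il2ra, Nrp1, Sema7a and Tfrc. These were 8 of the 43 described genes with more than 1 probe set past the filter. Some others kept the sign at a value nearer 0, for example Ap3b1 (-0.13), Scyl2 (0.02) and Tra2a (0.06).

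**Figure D3:**
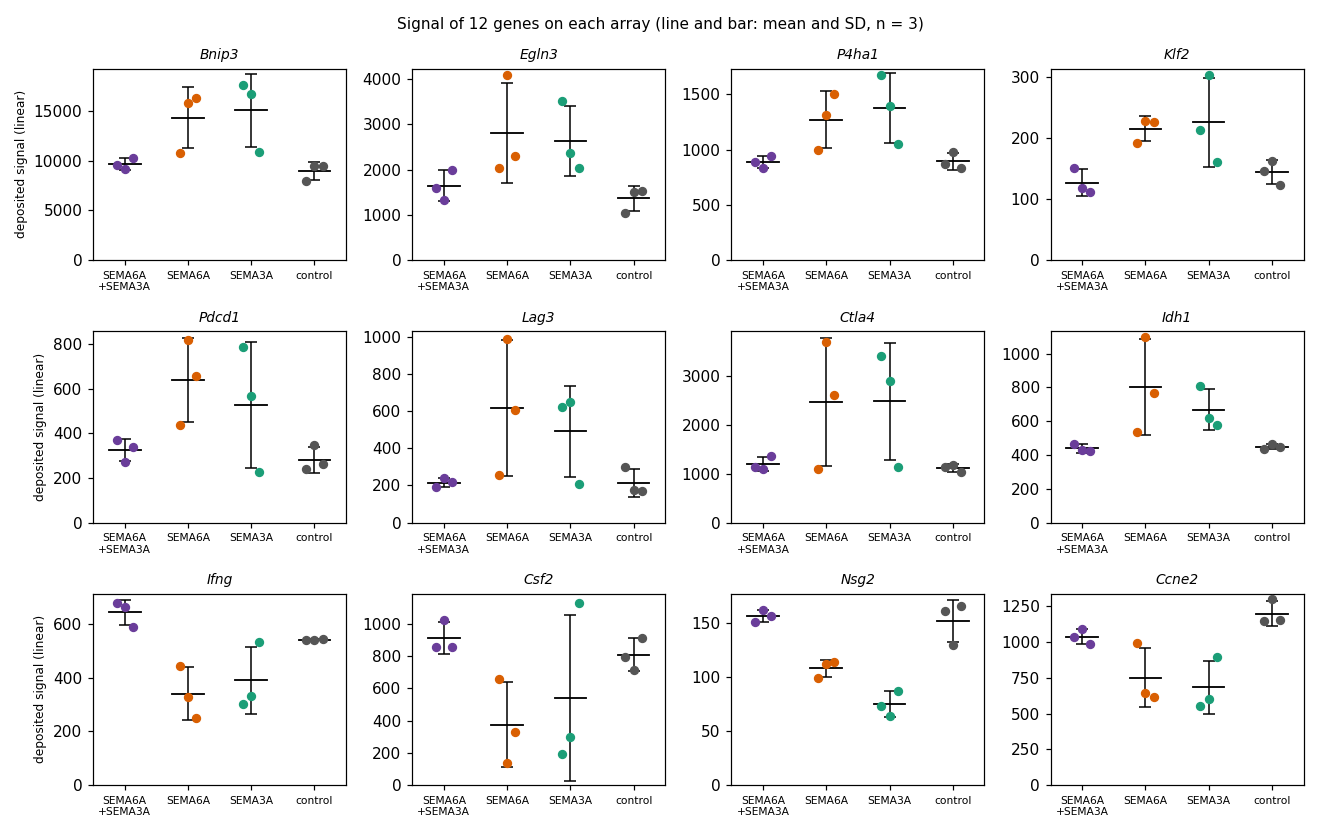
Deposited signal of 12 genes on each of the 12 arrays, by group, on a linear axis that starts at 0. Bnip3, Egln3, P4ha1, Pdcd1, Lag3, Ctla4, Klf2 and Idh1 lie higher on most arrays with 1 factor, Ifng, Csf2, Nsg2 and Ccne2 lie lower on most of them, and SEMA6A replicate 1 and SEMA3A replicate 3 lie nearest to the other groups in most panels.

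The semaphorin receptors themselves gave no clear pattern. Of 34 semaphorin and receptor genes on the array 21 were tested, with 2 below 0 (9.5%, against 10.2% of all genes) and 3 above (14.3%, against 7.82%) at an unadjusted p under 0.05 and a median of 0.35. It lay between 0.05 and 0.16 when SEMA6A replicate 1, SEMA3A replicate 2 or 3, or replicate 1 or 2 of both factors was left out. Sema3a, Sema6a, Nrp2 and Plxna2 did not pass the filter. The mean Sema6a signal of 30.9 ± 12.5 with both factors and 18.6 ± 13.6 with SEMA6A alone, against 16.9 ± 13.8 with SEMA3A alone and 17.0 ± 11.9 in the control (SD, n = 3 each), is no check of the overexpression, which was in the tumour cells. The SEMA3A co-receptor gene Nrp1 was at 0.47 ± 0.43 (95% interval -0.46 to 1.41, adjusted p = 0.56; 0.18 without SEMA3A replicate 2 and 0.80 without SEMA3A replicate 3) and the plexin gene Plxna1 at 0.65 ± 0.36 (95% interval -0.11 to 1.42, adjusted p = 0.33; 0.36 without SEMA3A replicate 2). Another probe set of Nrp1 gave -0.15. Plxna3 and Plxna4, of which plexin-A4 is a SEMA6A receptor, were at 0.07 ± 0.32 (adjusted p = 0.92) and 0.36 ± 0.66 (adjusted p = 0.80), and both turned sign with 1 array left out. Among semaphorins of immune cells, Sema4c lay at -1.27 ± 0.40, or -0.74 with 64 added to the signal, and Sema7a, which binds integrins, at 1.01 ± 0.42 (adjusted p = 0.24). Another probe set of Sema7a gave -0.21. The integrin subunit Itgb1 lay at 0.62 ± 0.20.

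Markers of other cells moved with the interaction in part. Of 36 squamous carcinoma genes on the array, the kind of tumour the cultures held, 22 were tested, and 4 lay below 0 (18.2%, against 10.2% of all genes) and 1 above at an unadjusted p under 0.05, with a median of -0.47. The median was -0.65 without SEMA6A replicate 1, -0.58 without SEMA3A replicate 3, and -0.21 both over all 36 genes with no filter and with the filter at the 75th percentile. Krt14, Krt15, Krt17, Trp63 and Itgb4, which define squamous cells, were among the 14 that did not pass the filter. The summed signal of the list ranged over 10430.2 to 11275 with both factors, 9827 to 14972 with SEMA6A alone and 11037 to 12862 with SEMA3A alone, against 10472 to 11527 in the control. Krt19, a keratin of simple epithelia, had 44.3, 75.8 and 56.3 with SEMA6A plus SEMA3A, 76.8, 209 and 186 with SEMA6A alone and 163, 239 and 25.1 with SEMA3A alone, against 52.6, 27.3 and 20.0 in the control, with 5 of the 6 arrays with 1 factor above all others and an interaction of -2.47 ± 0.75. Krt7 lay at -1.07 ± 0.46 (adjusted p = 0.25; -0.71 without SEMA3A replicate 2), the desmosome gene Dsp at -1.13 ± 0.49 (adjusted p = 0.25) and Perp at 0.70 ± 0.29 (adjusted p = 0.24). Their part in the glycolysis pattern was not tested.

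Of 27 macrophage and monocyte genes on the array 9 were tested, with 7 below 0 and 2 above. Fcgr3, Fcer1g and Tyrobp were listed for both macrophages and NK cells, so this list and its summed signal are not particular to macrophages. At an unadjusted p under 0.05, 3 lay below 0 (33.3%, against 10.2% of all genes) and 0 above. The median was -0.55, with -0.72 without SEMA6A replicate 1 and -0.57 without SEMA3A replicate 3, and it was -0.20 without SEMA6A replicate 2, -0.29 without control replicate 1 and -0.30 without replicate 2 of both factors. Over all 27 genes with no filter it was -0.19, and it was -0.29 with 64 added to the signal and -0.35 with array weights. Adgre1, Lyz2, C1qa, Mrc1 and Itgam, which define these cells, did not pass the filter. The summed signal was 20107 to 23665 with both factors, 20240.0 to 28028 with SEMA6A alone and 24138 to 30596 with SEMA3A alone, against 20928 to 23124 in the control. Fcgr3, an Fc receptor of macrophages and NK cells, had 571, 624 and 528 with SEMA6A plus SEMA3A, 414, 1026 and 967 with SEMA6A alone and 1404, 1082 and 759 with SEMA3A alone, against 546, 417 and 522 in the control, with 5 of the 6 arrays with 1 factor above all 6 others and an interaction of -1.44 ± 0.40. Of 16 neutrophil genes 4 were tested, all 4 below 0 and 2 of them at an unadjusted p under 0.05 (all genes, 10.2%). Their median was -1.23, with -1.36 without SEMA6A replicate 1 and -1.41 without SEMA3A replicate 3, but -0.14 over all 16 genes with no filter and -0.11 with the filter at the 75th percentile, and S100a8, S100a9, Mpo and Elane did not pass the filter. The tested genes included Il1r2, the decoy receptor of interleukin-1, with 79.4, 104 and 65.2 with SEMA6A plus SEMA3A, 67.6, 425 and 208 with SEMA6A alone and 309.6, 252 and 84.1 with SEMA3A alone, against 86.0, 69.2 and 67.4 in the control. Its 4 high arrays were again SEMA6A replicates 2 and 3 and SEMA3A replicates 1 and 2, and the interaction was -2.21 ± 0.69. The summed neutrophil signal was 855 to 1108 with both factors, 923 to 1636 with SEMA6A alone and 972 to 1721 with SEMA3A alone, against 926 to 1037 in the control. In the B cell list 0 of 6 tested genes passed an unadjusted p of 0.05, and in the NK cell list 1 of 11 lay below 0 and 1 above (9.1% each). The NK cell list member below 0 at that level was again Fcgr3. The NK cell shares were near the 10.2% and 7.82% of all genes. The T cell genes Cd3e and Cd8a were at -0.59 ± 0.16 and 0.48 ± 0.44 (adjusted p = 0.56 for Cd8a). The Cd8a value was 0.11 without SEMA6A replicate 2, 0.17 without SEMA3A replicate 1, 0.75 without SEMA3A replicate 2 and 0.13 with array weights. The part of cell composition in the lists above was not tested.

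**Figure D4:**
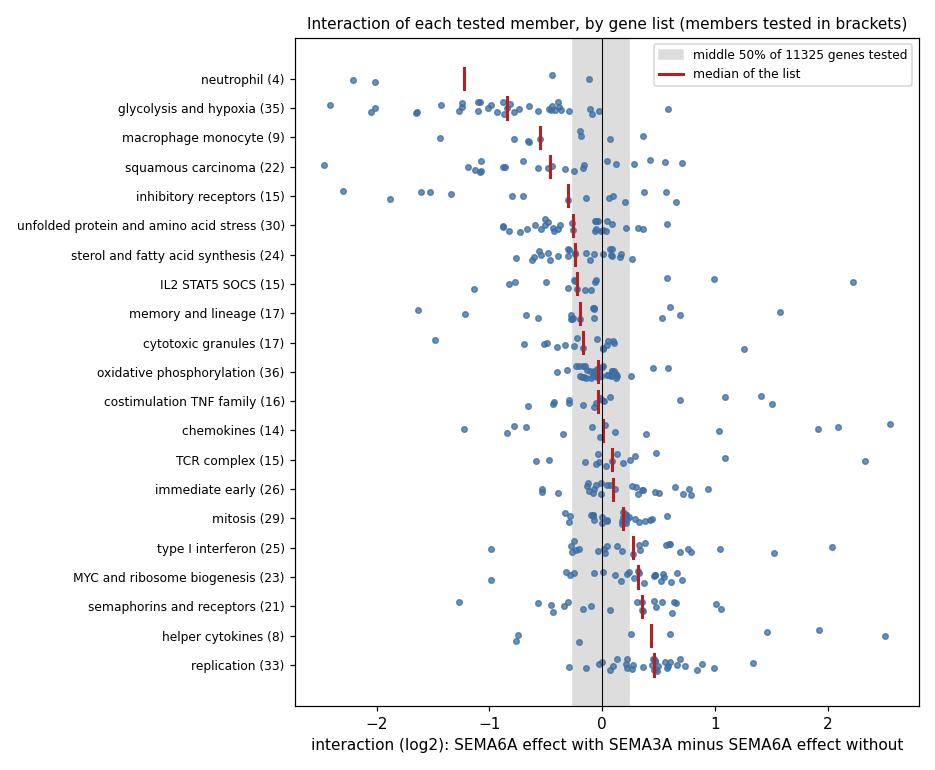
Interaction (log2) of each tested gene in each list (points) with the list median (bar), against the middle 50% of all 11325 genes, -0.26 to 0.24 (grey band). The glycolysis and hypoxia list has 34 of its 35 points below 0, and the replication list 29 of 33 above 0.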

How the data were processed

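RNA of splenocytes was hybridised to Affymetrix mouse arrays, 1 per sample. The authors deposited 1 linear intensity per probe set and array, which per the submitters' processing notes came from MAS5 (version not given in the sources used here). No detection calls or scanner files were used here. The signals were taken as log2(signal + 16), which understates differences of dim genes, and quantile normalized, because array medians differed by up to 1.26 times. Of 45037 probe sets, 34945 had 1 gene in the platform annotation, 932 had several and 9160 were not listed, and 34741 of the gene identifiers matched the RefSeq table of GRCm38.p6. A probe set was kept where its signal exceeded the array median on 3 arrays or more (24366 probe sets), and the one with the highest mean stood for a gene, which gave 11325 genes.

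One model with a mean for each of 4 groups was fitted in limma 3.58.1 under R 4.3.3 (eBayes with trend, 8 residual and 5.14 prior degrees of freedom) and p-values were adjusted by Benjamini-Hochberg over all tested genes. The fit was tested on simulated data with independent noise of equal spread on every array, which leaves out the differences between arrays seen here. Array measures were compared by exact permutation over 924 splits. The genes named were the 12 smallest interaction p-values in each direction among genes with ordinary symbols, up to 5 smallest per described list, and a fixed panel. The question, the lists and the panel were chosen with earlier results of these data known, and lists were therefore described by counts and medians with no test. Alternatives covered the normalization, the added constant, the filter on dim probe sets, the choice of probe set, the replicate number as a block, the prior, array weights and each array left out. Array number, at 3 per group, limits the precision.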

Additional observations from a re-analysis of the deposited data

Results flagged for a closer look

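For 3 gene lists, the SEMA6A effect on the list average went one way without SEMA3A and the other way with it on every array. Each array with SEMA6A alone lay above each control array, and each array with both factors lay below each array with SEMA3A alone. None of the other lists scored had such a pattern in either direction. The 3 lists were glycolysis and hypoxia, with an interaction of the list average of -0.863 on the log2 scale, sterol and fatty acid synthesis with -0.218, and cytotoxic granules with -0.179. The difference between the effects was not tested, since the lists were chosen with earlier results known. The averages were separated by narrow margins. For glycolysis, the highest array with both factors was at -0.10 and SEMA3A replicate 3 at -0.09. For the sterol list these values were -0.027 and -0.0094. For the granule list they were -0.020 and -0.0083, and SEMA6A replicate 1 was at -0.035 against -0.042 for the highest control array. With the factors exchanged, the granule list did not keep the pattern. SEMA6A replicate 1 lay below replicates 1 and 3 of both factors, at -0.020 and -0.024, while the glycolysis and sterol lists kept it. The summed granule signals overlapped, at 292344 to 315476 with SEMA6A alone and 299931 to 324819 in the control.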

How the results depend on the processing

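With 3 arrays per group, of which SEMA6A replicates 1 and 2 and SEMA3A replicate 3 carried low weights, the number of genes called rested on single arrays. The count past an adjusted p of 0.05 was 0 in the fit of all arrays, 1580 with array weights and 0 to 1260 with 1 array left out. Unadjusted, 2037 genes had a p under 0.05, with 3522 under array weights, 3256 when every probe set was counted and 1304 to 3392 with 1 array left out. Of the 97 described genes, 75 passed the adjusted threshold with array weights, 70 without SEMA6A replicate 1 and 50 without SEMA3A replicate 3. Over all 11325 genes these counts were 1580, 1260 and 258. Most of the 97 were named for a small interaction p-value in these same arrays, so their counts are no separate evidence. In those fits 27, 24 and 19 of the 35 glycolysis and hypoxia genes and 16, 19 and 5 of the 33 replication genes were called. The glycolysis median stayed between -1.01 and -0.71 and the replication median between 0.29 and 0.62 with 1 array left out. Signs turned for the semaphorin list (0.35; -0.24 with the filter at the 75th percentile and 0.05 to 0.42 under the other settings), the oxidative phosphorylation list (0.077 with each gene's most variable probe set by interquartile range, -0.04 in the fit of all arrays) and Hif1a (0.85 with such a probe set, and -0.15 to 0.052 with 1 array left out). With 1 array left out they also turned for Plxna3 (-0.14 to 0.21), Plxna4 (-0.32 to 0.70), the chemokine list (-0.24 to 0.21, where the fit of all arrays gave 0.0040) and the costimulation list (up to 0.0087, where it gave -0.04). The chemokine median was also -0.0023 with 64 added to the signal. The cause was not tested. Under all alternatives, 2007 of 2014 values for single genes kept their sign, the 7 others being those of Hif1a, Plxna3 and Plxna4, and 432 of 441 list medians did. Of the list medians 54 moved by more than their spread, and 195 single-gene values passed the adjusted threshold. With the replicate number as a block, 0 genes passed an adjusted p of 0.05 (lowest 0.28) and 1764 an unadjusted one. Same-numbered arrays correlated at -0.36 to 0.14 in their deviations from group means, so the numbers were not taken to pair the samples. Dim probe sets were judged by signal alone.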

Other observations

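Genes of interleukin-2 signalling had interactions on both sides of 0. Of 15 genes tested, 5 lay below 0 (33.3%, against 10.2% of all genes) and 3 above (20.0%, against 7.82%) at an unadjusted p under 0.05. The median was -0.22, with -0.21 without SEMA6A replicate 1 and -0.29 without SEMA3A replicate 3, and none passed the adjusted threshold. Jak3, the kinase of the common gamma chain, lay at -0.78 ± 0.21 (SE, on the log2 scale), the receptor subunit gene Il2ra at -0.82 ± 0.25 and the survival kinase gene Pim2 at -1.14 ± 0.29. Another probe set of Il2ra gave the opposite sign, at 0.17. Lif, a cytokine of the interleukin-6 family, lay at 2.22 ± 0.82 and the feedback inhibitor Socs1 at 0.99 ± 0.39 (adjusted p = 0.23; 0.58 without SEMA6A replicate 2).

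Memory and lineage genes lay below 0 in 13 of 17 tested. At an unadjusted p under 0.05, 3 lay below 0 (17.6%, against 10.2% of all genes) and 2 above (11.8%, against 7.82%), and none passed the adjusted threshold. The median was -0.20, with -0.31 without SEMA6A replicate 1, -0.27 without SEMA3A replicate 3 and -0.02 without SEMA6A replicate 2. Prdm1, the repressor Blimp-1 of effector cells, had signals of 788, 548 and 815 with SEMA6A plus SEMA3A, 724, 1272 and 1616 with SEMA6A alone and 1699, 1541 and 595 with SEMA3A alone, against 591, 613 and 572 in the control, and the interaction was -1.64 ± 0.49. Cd44, the hyaluronan receptor of antigen-experienced T cells, lay at 1.58 ± 0.45 and the transcriptional regulator Id2 at 0.69 ± 0.31 (adjusted p = 0.27; 0.34 without SEMA6A replicate 2). In the T cell receptor list, 2 of 15 lay below 0 and 2 above at that level (13.3% each, near the 10.2% and 7.82% of all genes), among them Cd6, a scavenger receptor family member of T cells, at 2.33 ± 0.60, and Cd5, its relative, at 1.09 ± 0.47 (adjusted p = 0.25).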
